A study of Mus musculus with 50 samples.

Results

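The sites described here are the places in the genome of 3T3 fibroblasts where an antibody to the glucocorticoid receptor (GR) gave a CUT&RUN peak although no glucocorticoid had been added. They were chosen by the peak calls of both libraries of 250000 nuclei (250K) from vehicle-treated cells: peaks overlapping by at least 1 bp were merged, and 238 regions were called in both. They are called vehicle sites below. All 39 peak lists of the series merge into 50410 regions, of which 0.478% had a peak in both of these libraries and 2.3% in at least 1, figures that the choice itself fixes. A comparison set, the DEX-only sites, holds 2293 regions called in both 250K libraries from dexamethasone-treated cells and in neither 250K vehicle library. Values in the 250K vehicle libraries are a description, and no test rests on them.

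GR is a nuclear receptor encoded by Nr3c1. Without ligand it is held mostly in the cytoplasm in a complex with Hsp90 and co-chaperones such as p23 and HOP, and on binding a glucocorticoid it moves to the nucleus. There it binds a palindromic DNA element, the glucocorticoid response element (GRE), or reaches chromatin through other factors, of which AP-1 (FOS and JUN dimers) is well studied in fibroblasts. A peak called without ligand can therefore be receptor at DNA, or signal of the assay that does not depend on receptor. In CUT&RUN an antibody brings a nuclease to chromatin, which releases short fragments around the bound protein, and MACS2 reports a fold enrichment over background at the summit of each peak.

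3T3 is a mouse fibroblast line, here of wild-type genotype, held in medium with charcoal-stripped serum, which removes steroids, and then given 200 nM dexamethasone (DEX, a synthetic glucocorticoid) or ethanol vehicle for 2 h, at 50000 (50K) or 250K nuclei with 2 libraries each. The in vivo libraries came from 175000 nuclei of primary visual cortex (V1) at postnatal day 14, each a pool of several mice. Astrocyte nuclei carried a GFP tag from a virus with the GfaABC1D promoter, in wild-type mice reared normally (NR) or in the dark (DR) from birth (3 GR libraries each), or in mice with floxed GR alleles that received an inactive ΔCre (GR-con) or active Cre (GR-KO) (2 GR libraries each, reared normally). The wild-type NR and DR astrocytes had the ΔCre virus too, so the inactive recombinase was shared by all astrocyte groups except GR-KO. From normally reared mice with a Sun1-GFP allele (Sun1-GFPfl/fl in the labels, Sun1-GFPfl/+ in the paper's methods) came GFP-positive nuclei of oligodendrocytes (Olig2-Cre), inhibitory neurons (InN, Slc32a1-Cre) and excitatory neurons (ExN, Slc17a7-Cre), with 3 GR libraries each, and NFIA, a nuclear factor I protein, was profiled in the 4 cell types under normal rearing (3 libraries each). The titles name the astrocyte NFIA libraries as normally reared GFP-positive astrocytes. The paper's methods place astrocyte NFIA profiling with the mice with floxed GR alleles. The genotype of these NFIA libraries may therefore differ from that of the wild-type NR libraries for GR. No IgG list or receptor knockout of 3T3 cells is used here, so how much of the vehicle signal depends on GR was not tested. No expression was measured in these files, and 0 of 8 fibroblast markers had a vehicle site within 50 kb, so the identity of the cells rests on their labels. In the 250K DEX libraries 3 of the 8 (Col3a1, Thy1 and Vim) had a peak that near in both libraries. So did 3 of 15 astrocyte markers (Slc1a3, Sox9 and Glul) and 2 of 15 neuron markers (Dlx2 and Camk2a). No share over all genes is given for these lists.

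Peak numbers spanned a wide range, so a share of sites with a peak depends on how many peaks a list holds, and read depth is unknown from peak lists. The 3T3 lists held 189 to 5010 peaks and the astrocyte GR lists of NR mice 2262 to 21539, whereas the DR lists held 28, 69 and 293. A single list held 4 peaks (oligodendrocyte GR, replicate 3) and another held 1 (ExN NFIA, replicate 3). NR replicate 2 stood apart from the other NR libraries, with 2262 peaks against 14012 and 21539, and its strongest peaks had a sequence content nearer to that of the DR lists, described below. Whether its label holds was not tested, and it is kept as labelled, with the main NR comparison also given without it. The highest q was below 0.05 in the 3T3 lists and below 0.01 in the in vivo lists.

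Of the 238 vehicle sites, 5 lay side by side on chromosome 17 between 39843220 and 39848777 (mm10), over the annotated genes Gm26917, CT010467.1 (a ribosomal RNA gene), Gm42418 and AY036118. This is a copy of the ribosomal RNA repeat, which has many copies in the genome. The authors kept only reads of high mapping quality, but reads from copies that the assembly lacks can still map there, so these 5 sites are uncertain. They had low folds in both 250K vehicle lists. Their mean rank within those lists ranged from percentile 0.358 to 20.9. What they add is given beside the results for brain nuclei.

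The sequences that set the vehicle sites apart are shown first. The stretches span 50 bp on either side of the summit (GRCm38.p6, the assembly of mm10, plus strand), and capitals mark the word TGGAAA or its reverse complement, and the AP-1 element TGANTCA. The first 5 hold TGGAAA. Coro2b names the site with the best mean rank of all, Nrp2 an intronic site, and Stip1, Tufm and Ska2 are promoter sites that also had peaks in brain nuclei. The Coro2b site had a peak in 5 of 31 V1 libraries too, and the Nrp2 site in 0.

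Coro2b (chr9:62560179-62560279): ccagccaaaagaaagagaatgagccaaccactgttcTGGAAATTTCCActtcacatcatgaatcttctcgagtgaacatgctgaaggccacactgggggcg

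Nrp2 (chr1:62722098-62722198): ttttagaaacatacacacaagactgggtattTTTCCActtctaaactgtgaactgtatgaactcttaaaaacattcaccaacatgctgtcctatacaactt

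Stip1 (chr19:7040223-7040323): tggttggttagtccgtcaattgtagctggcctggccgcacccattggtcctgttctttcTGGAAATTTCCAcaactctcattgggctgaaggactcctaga

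Tufm (chr7:126487207-126487307): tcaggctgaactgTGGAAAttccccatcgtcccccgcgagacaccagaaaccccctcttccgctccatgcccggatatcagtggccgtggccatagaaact

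Ska2 (chr11:87108934-87109034): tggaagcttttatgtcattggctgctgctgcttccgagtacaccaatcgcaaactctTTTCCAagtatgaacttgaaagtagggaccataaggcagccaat

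The next sites hold AP-1 with the word (Snx9, Map10) or without it (Uqcc2), and the site near Dusp1 holds neither. Snx9 and Uqcc2 were also the best-ranked vehicle sites in the DEX lists.

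Snx9 (chr17:5822617-5822717): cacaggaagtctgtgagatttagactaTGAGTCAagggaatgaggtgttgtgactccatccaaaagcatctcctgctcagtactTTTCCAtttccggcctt

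Map10 (chr8:125639826-125639926): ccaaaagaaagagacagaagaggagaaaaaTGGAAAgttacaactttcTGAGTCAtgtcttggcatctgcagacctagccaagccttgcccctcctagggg

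Uqcc2 (chr17:27142040-27142140): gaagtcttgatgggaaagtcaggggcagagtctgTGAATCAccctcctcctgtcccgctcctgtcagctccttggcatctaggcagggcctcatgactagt

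Dusp1 (chr17:26504173-26504273): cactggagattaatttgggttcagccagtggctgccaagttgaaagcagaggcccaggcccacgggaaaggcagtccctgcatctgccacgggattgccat

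Vehicle sites held AP-1 and TGGAAA more often than the DNA beside them, and the full GRE was found in none of their windows. On both strands of these windows, TGGAAA was found at 103 of 238 vehicle sites (43.3%), against 7.98% of the 476 windows lying 1 kb to either side, 14.8% of DEX-only sites and 10.1% of all merged regions. This word was added to the search after the sequences had been seen, so its share is a description. AP-1 was found at 91 sites (38.2%), against 2.73% of flanks, 26.7% of DEX-only sites and 7.2% of all regions. The full GRE was found at 0 of 238 vehicle sites (upper Wilson limit 1.59%), against 4.23% of DEX-only sites and 0.51% of all regions, and 1 vehicle site held it when windows were widened to 100 bp on either side. The looser form ACANNNTGT was held by 5.88% of vehicle sites and 14.8% of DEX-only sites, and the single hexamer AGAACA by 10.5% and 21.2%. Among 32815 RefSeq promoters of 300 bases, 21.4% held TGGAAA, 7.81% AP-1, 0.222% the full GRE, 6.85% ACANNNTGT and 19% AGAACA. These stretches are longer than the windows at the sites, so their shares are not like for like.

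**Figure D1:**
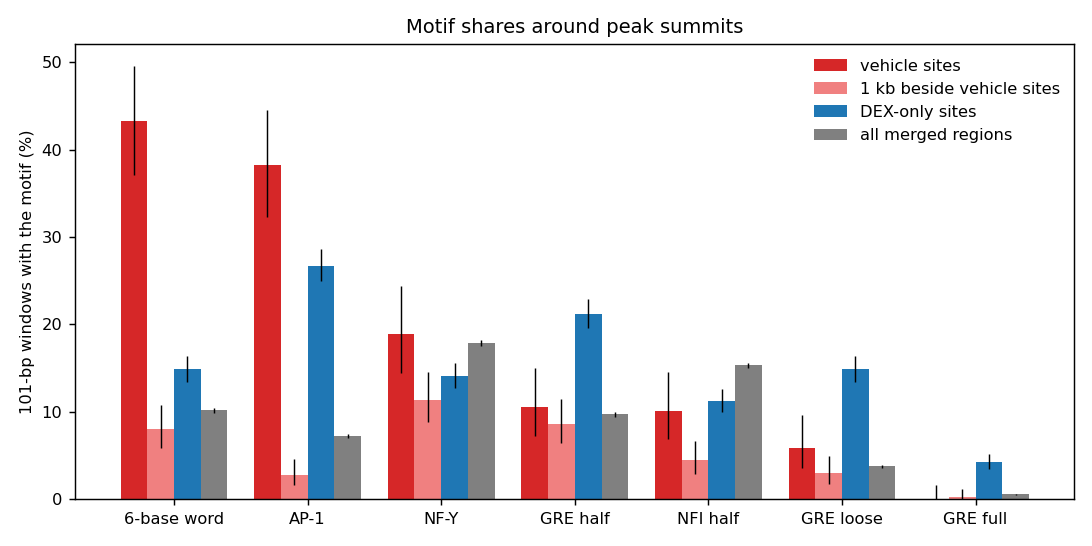
Percentage of windows of 50 bp on either side of the summit (y axis) that hold each motif (x axis) at the 238 vehicle sites, in the windows 1 kb beside them, at the 2293 DEX-only sites and in all 50410 merged regions, with Wilson 95% intervals as bars. The 6-base word is TGGAAA, held by 43.3% of vehicle sites and 14.8% of DEX-only sites, and the full GRE bar of the vehicle sites is at 0.

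The word and AP-1 overlapped in part. TGGAAA without AP-1 was found at 76 sites, AP-1 without the word at 64, both at 27 and neither at 71. The letters after the word were uneven. Over 111 matches with 5 bases to their right, position 11, counted from 1 at the T of the word, was C in 71.2% and position 9 was T in 69.4%. The word with C at position 11 was found at 73 vehicle sites (30.7%), against 2.31% of flanks, 4.93% of DEX-only sites and 3.14% of all regions. In the RefSeq promoters, whose stretches are longer (300 bases), it was found in 5.03%. Matches lay at a median of 18.5 bp from the summit for TGGAAA and 23 bp for AP-1, and 53% and 42.7% were within 20 bp. The search reached only 50 bp from the summit, which itself limits these distances. No reference distance was computed, so whether either motif is centred on the summit was not tested.

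Other motifs showed smaller departures. TTGGCA, an NFI element, was held by 10.1% of vehicle sites, 4.41% of flanks and 15.3% of all regions. CCAAT, bound by NF-Y, was held by 18.9%, 11.3% and 17.9%. ACATTCC, a TEAD element, was held by 2.1% of vehicle sites and 5.97% of DEX-only sites, and the CTCF core by 0 vehicle sites and 1.52% of all regions. GC content of the windows had a median of 47.5% at vehicle sites, 46.5% at DEX-only sites and 53.5% in all regions, so the sets differ in base composition from the series as a whole.

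Most vehicle sites lay away from transcription starts. Within 500 bp of a start were 30 sites (12.6%, Wilson interval 8.97% to 17.4%), which are called promoter sites here, against 8.11% of DEX-only sites and 27.5% of all regions. Introns held 99 sites (41.6%), intergenic sequence 42.4% and exons 8 (3.36%). Widths ran from 84 to 1058 bp with a median of 178 bp, and no window was more than 50% repeat-masked. With promoters taken as 2000 bp, the promoter share was 23.1%.

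The rule kept a minority of what either list held. The 250K vehicle lists held 382 and 1035 peaks, and 143 merged regions were called only in replicate 1 and 796 only in replicate 2. Just inside the rule were intronic sites of Col6a3 and Cd300lb and a site whose nearest start, that of Sgk1, was 91689 bp away, each with 4.64-fold enrichment in its weaker list (−log10 q of 1.42). Just outside it, the strongest region of 1 list lay near Syne2, with 522-fold enrichment in replicate 2 and no peak in replicate 1, and the next lay near Fgd3 (15.9-fold). Of the 939 regions called in 1 list, 4.79% and 10.6% had a peak in the 50K vehicle libraries, 8.95% and 19.5% in the 50K DEX libraries, and 55.3% and 52% in the 250K DEX libraries.

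The first question is whether the sites recur in other 3T3 libraries, which the rule did not use. At least 1 of the 50K vehicle libraries had a peak at 161 of 238 vehicle sites (67.6%), where 0.788% of all merged regions had one, and both did at 91 (38.2%, background 0.22%). The libraries held 47.9% and 58% of the sites. With 50K nuclei and DEX the shares were 47.9% and 65.5%, with a peak in at least 1 library at 162 sites (68.1%, background 3.09%). The means, 52.9% ± 7.13 and 56.7% ± 12.5 (SD, n = 2 each), differed by 3.78 percentage points, and the libraries overlapped (exact permutation test over libraries, two-sided, p = 1, where 2 against 2 cannot go below 0.33). The direction turned without vehicle replicate 1 (-1.26) and without DEX replicate 2 (-5.04). By contrast, DEX-only sites had a peak in 0.523% and 1.53% of cases in the 50K vehicle libraries and in 19.3% and 35.2% in the 50K DEX libraries.

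In the 250K DEX libraries, 209 of 238 sites (87.8%) had a peak in each. Both libraries had one at 199 sites (background 5.74%), 1 of them at 20, and neither at 19, and 219 sites (92%, background 13.2%) had one in at least 1. This was 31.1 percentage points above the 50K DEX libraries, each higher than either of them (exact permutation p = 0.33, the smallest that 2 against 2 allows, adjusted p = 0.407 over 11 comparisons). With the 1000 best peaks of each list it was 3.78, so the difference moved with the length of the lists. Over the 6 other 3T3 libraries together, 64 sites had a peak in all 6 and 13 in none. Sites with the word and no AP-1 had a peak in a 50K DEX library more often (64 of 76) than sites with AP-1 and no word (33 of 64), and in a 50K vehicle library 59 of 76 and 37 of 64 did. These classes were drawn after the sequences had been seen and were not tested.

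**Figure D2:**
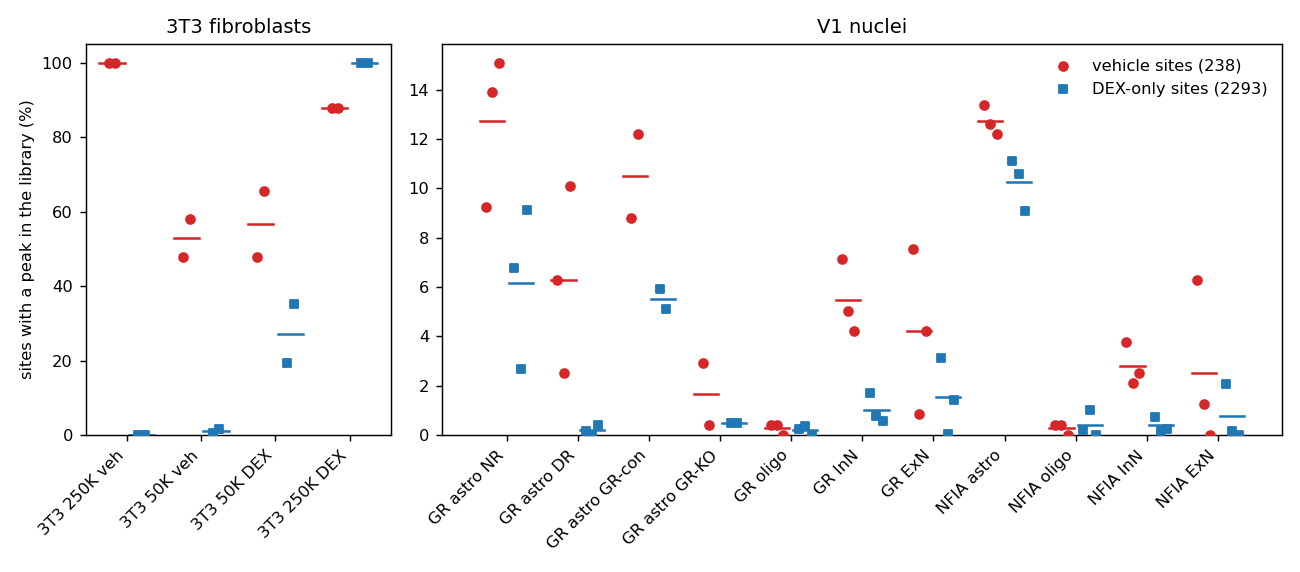
Percentage of vehicle sites (red circles) and of DEX-only sites (blue squares) with a peak in each library (y axis) by group (x axis), 1 point per library and a line at the group mean, for 3T3 libraries on the left and V1 libraries on the right with a different scale. At vehicle sites the 50K vehicle libraries lie at 47.9% and 58% and the 50K DEX libraries at 47.9% and 65.5%, and the 100% and 0% values of the 250K libraries are set by how the sites were chosen.

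As a share of each list, the picture was different. Vehicle sites made up 60.3% and 43.1% of the peaks of the 50K vehicle libraries, 15.8% and 11.4% with 50K nuclei and DEX, and 4.19% and 4.49% with 250K nuclei and DEX. The DEX lists were longer (720 to 5010 peaks against 189 and 320). So the sites were called about as often with and without DEX at 50K, while their part of the list was lower in each DEX library than in each vehicle library (difference -38.1 percentage points, exact permutation p = 0.33, the smallest possible).

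Signal at the sites could be compared because each peak's fold and p give back the number of fragments stacked at its summit. At the 64 sites called in all 8 3T3 libraries, the median count over the library's background level was 64.9 and 67.2 in the 250K vehicle libraries, which chose the sites. It was 50.3 and 45.7 in the 50K vehicle libraries, 47.7 and 47.4 in the 50K DEX libraries, and 85.2 and 79 in the 250K DEX libraries. At 50K the median log2 of this ratio with DEX minus vehicle was -0.0138, and the libraries overlapped (exact permutation p = 1). Median counts behind these ratios were 19.5 to 29 fragments, with single sites from 7 to 128. Sites of the ribosomal RNA locus were among the 64, and the count of 128 came from that locus. A site had to be called in every library to enter, which leaves out sites that were lost with either treatment.

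**Figure D3:**
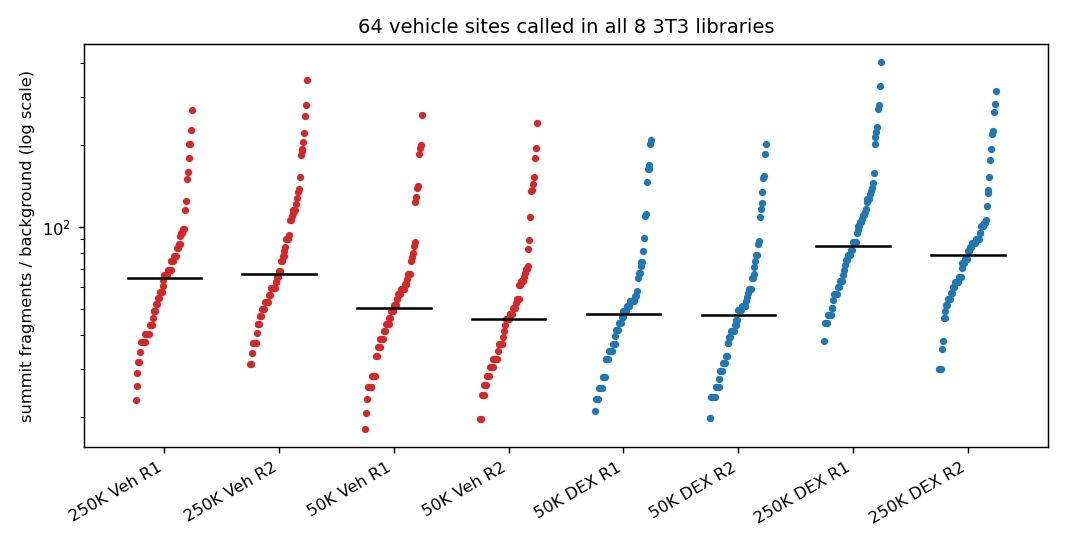
Fragments at the summit divided by the library's background (y axis, log scale) for each of 64 vehicle sites in the 8 3T3 libraries (x axis, vehicle in red and DEX in blue), sites sorted within a library and a black line at the median. The medians of the 50K libraries run from 45.7 to 50.3 and those of the 250K libraries from 64.9 to 85.2.

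Single sites did not all behave alike in the 3T3 lists. The site 23031 bp from the start of Coro2b, a coronin that binds actin, had folds of 26.8 and 30.4 in the 250K vehicle lists and 25.4 and 20.9 in the 50K vehicle lists. With DEX its folds were 12.2 and 12.9 at 50K and 19.5 and 19.6 at 250K, lower in each DEX library than in the vehicle libraries of the same size. The promoter site of Brd2, a bromodomain protein that reads acetylated histones, had folds of 12.2 and 12.3 at 50K with vehicle and 6.74 and 6.9 with DEX. Its summit fragments, not divided by background, were closer, at 26 and 29 with vehicle and 22 and 23 with DEX. Both sites were named for their rank in the 250K vehicle lists, where a high value was the condition for being named.

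By fold, the sites near Snx9 and Uqcc2 went the other way. The site 18503 bp from Snx9, a sorting nexin of endocytosis, had folds of 18.2 and 13.8 at 50K with vehicle and 25.5 and 28.5 with DEX, and 34.6 and 35.1 at 250K with DEX. The site 7978 bp from Uqcc2, which assembles respiratory complex III, had 10.6 and 12 with vehicle and 17.1 and 24.8 with DEX at 50K. The 2 sites beside Hspa1b, an inducible Hsp70 chaperone, lay 765 and 1976 bp from its start. The farther one, with AP-1 and the word, had 4.98 and 6.46 with vehicle and 12.6 and 17 with DEX at 50K, and the nearer one was called in 1 library of each. At these 3 sites the 50K DEX folds lay above the vehicle folds. Summit fragments at 50K, not divided by background, overlapped at the first 2 of them. Near Snx9 they were 76 and 66 with vehicle and 63 and 78 with DEX. Near Uqcc2 they were 48 and 63 against 47 and 59, and at the farther Hspa1b site 14 and 21 against 23 and 34. Fold also depends on the background at a site, so fold and count can differ.

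The remaining sites named for their rank in the DEX lists were mixed. The promoter site of Tspyl2, a nucleosome assembly family protein, had 8.05 and 5.47 with vehicle and 12.5 and 18.1 with DEX at 50K. Tmem106b, a lysosomal membrane protein, lay 17022 bp from a site with 11 and 13.3 against 16.8 and 15.9. The site nearest to Dysf, a membrane repair protein of muscle, lay 56384 bp from its start and had 18.7 and 14.8 against 15.2 and 15.6, so its libraries overlapped. The site nearest to Mat2b was called in 1 of 2 vehicle libraries (6.33) and had 13.1 and 21.6 with DEX. All 8 were chosen by high DEX ranks, so their direction is a description.

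By fold, other well-ranked sites differed less between the 50K groups. Nrp2, a receptor for semaphorins and VEGF, held an intronic site 18346 bp from its start with 13.8 and 12.7 (vehicle) and 11.6 and 8.91 (DEX). Summit fragments there were 24 and 30 (vehicle) and 35 and 30 (DEX). Map10, a microtubule-binding protein, was 29849 bp from a site with 21.1 and 18.5 (vehicle) and 19.1 and 12.3 (DEX). The site 30920 bp from Atp5o, a subunit of ATP synthase, had folds of 11.6 and 12.3 against 13.1 and 14.1, and 34 and 41 fragments against 28 and 33. Sites nearest to Clrn2, Mrps6, Nkx2-5 and Gm9887 complete the 12 of best rank, and of these Clrn2 lacked a call in replicate 1 of both 50K groups.

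A small set was seen nowhere else. At 12 of 238 sites no other library of the series had a peak. The best-ranked of these lay in an intron of Capg, which encodes an actin-capping protein, 599 bp from its start, with 11.3-fold and 9.38-fold enrichment in the 250K vehicle lists. Sites nearest to Thap1, Mgat4e, Pdgfc and Tusc1 followed, and 3 of these 4 held AP-1.

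In brain nuclei, 54 of 238 vehicle sites (22.7%) had a peak in at least 1 of 31 libraries, where 88% of all merged regions had one. At 19 sites (7.98%) there was a peak in 10 or more, against 1.92% of all regions. Without the ribosomal RNA locus the counts were 49 and 15 of 233. GR libraries of NR astrocytes held 9.24%, 13.9% and 15.1% of the sites, a mean of 12.7% ± 3.1 (SD, n = 3). At least 1 of them had a peak at 40 sites (16.8%), below the background of 45.5% of all merged regions, many of which come from these long lists. GR-con astrocytes held 8.82% and 12.2%, with 31 sites in at least 1 library (13%, background 20.4%). Both counts were below their background.

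In dark-reared astrocytes the count was above it. The DR libraries held 6.3%, 2.52% and 10.1% of the sites, with a peak in at least 1 at 27 sites (11.3%), where 0.601% of all merged regions had one. All 3 DR libraries had a peak at 6 sites (2.52%, background 0.0417%), those near Stip1, Tufm, Mrpl45, Ptms, Ampd2 and Dusp1. In turn, vehicle sites made up 18.8%, 21.4% and 8.19% of the DR peaks but 0.164%, 1.5% and 0.167% of the NR peaks. Of the 63 regions called in at least 2 DR libraries, 12 overlapped a vehicle site (19%). DEX-only sites, about 10 times as numerous, had a peak in 0.174%, 0% and 0.392% of cases in the DR libraries.

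**Figure D4:**
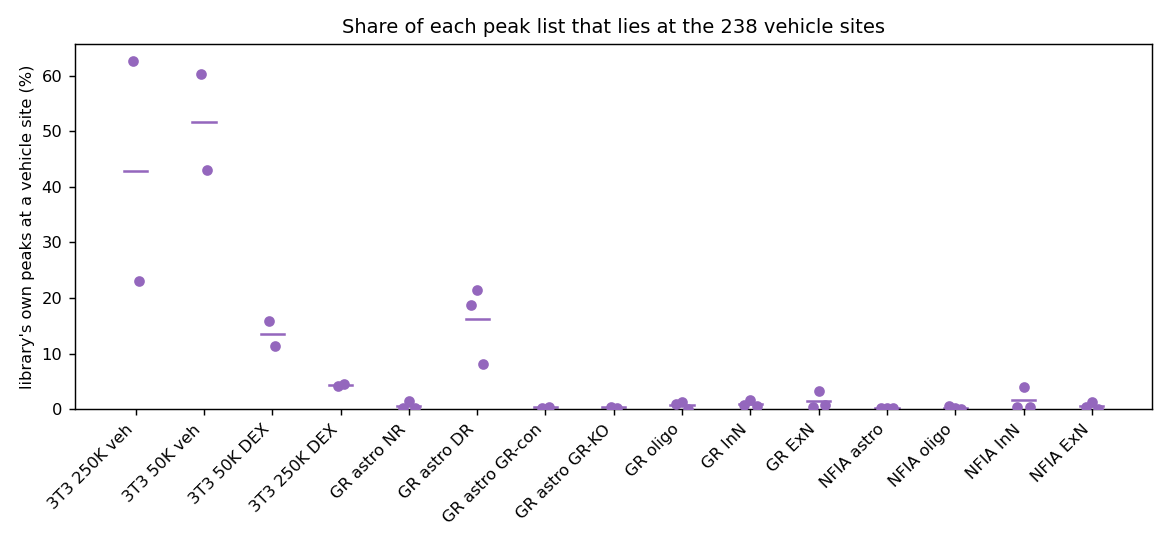
Percentage of each library's own peaks that overlap a vehicle site (y axis) by group (x axis), 1 point per library and a line at the group mean. The 3 DR astrocyte libraries lie between 8.19% and 21.4%, above every other V1 library, whose highest value is 3.93%.

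NR minus DR depended on the denominator. As a share of vehicle sites, NR was 6.44 percentage points higher, with overlapping libraries (exact permutation p = 0.2, adjusted p = 0.314, 0.1 being the smallest that 3 against 3 allows), and 5.88 higher without NR replicate 2. As a share of each library's own peaks it was 15.5 lower, with each DR library above each NR library (exact permutation p = 0.1, adjusted p = 0.367). Neither passed the threshold of 0.05. Of the 27 sites with a DR peak, 22 also had a peak in an NR library, 20 in a GR-con library and 18 in an NFIA library of astrocytes. The remaining 5 were the sites of the ribosomal RNA locus, with none of these. Of all 303 merged regions with a DR peak, 88.1%, 76.2% and 75.9% had a peak in these libraries.

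The share was lower in the GR-KO than in the GR-con libraries, with a peak remaining at a few sites. GR-KO astrocytes held 2.94% and 0.42% of the sites, a mean of 1.68% ± 1.78 against 10.5% ± 2.38 in GR-con (SD, n = 2 each). Each GR-con library was above each GR-KO library, by 8.82 percentage points on average (exact permutation p = 0.33, the smallest possible, adjusted p = 0.407), and by 1.05 with the 1000 best peaks of each list. At least 1 GR-KO library had a peak at 7 sites (2.94%, background 4.2%), nearest to Mrpl45, Klhl28, Prkdc, Dusp1, Stip1, Ptms and Tufm. All 7 had a peak in a GR-con library too, and 6 of the 27 sites with a DR peak were among them. TGGAAA was held by 6 of the 7. Among vehicle sites it was held by 25 of 40 with an NR peak (62.5%) and 17 of 27 with a DR peak (63%). The Mrpl45 site, called in both GR-KO libraries, had 16.9-fold and 23-fold enrichment with the receptor allele intact and 6.3-fold and 6.03-fold after Cre. The GR-KO lists were shorter (1846 and 413 peaks against 7761 and 6792), and vehicle sites made up 0.379% and 0.242% of them against 0.271% and 0.427%. The share of nuclei that still had the receptor cannot be told from these files.

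In each library of neurons and oligodendrocytes the share was lower than in any NR astrocyte library. GR libraries of InN held 7.14%, 5.04% and 4.2% (at least 1 library at 20 sites, 8.4%, background 7.77%), those of ExN 7.56%, 0.84% and 4.2% (19 sites, 7.98%, background 10.4%), and those of oligodendrocytes 0.42%, 0.42% and 0% (1 site, 0.42%, background 0.284%). Each NR astrocyte library was above each library of these types, by 7.28, 8.54 and 12.5 percentage points on average (exact permutation p = 0.1 in each case, the smallest possible, adjusted p = 0.183). With the 1000 best peaks they were 1.26, 3.36 and 3.64, and without the ribosomal RNA locus 9.59, 10 and 12.7. The direction was the opposite for a share of own peaks, where the differences were -0.326, -0.884 and -0.103 points.

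The ribosomal RNA locus was part of the neuron values. All 5 of its sites had a peak in at least 1 library of InN GR, ExN GR, InN NFIA, ExN NFIA and DR astrocyte GR, and 0 of 5 had one in the NR, GR-con, GR-KO and oligodendrocyte GR libraries or in the astrocyte and oligodendrocyte NFIA libraries. Without the locus the mean share of the 233 remaining sites was 3.43% in InN and 3% in ExN for GR, and 0.715% and 1.43% for NFIA, down from 5.46%, 4.2%, 2.8% and 2.52%. At least 1 library then had a peak at 15 sites in InN (6.44%, now below the background of 7.77%), 14 in ExN, 22 in DR astrocytes (9.44%), and 4 and 10 for NFIA in InN and ExN. Vehicle sites then made up 14.5%, 21.4% and 7.51% of the DR peaks. In DR astrocytes it was 5.44% in place of 6.3%, and NR minus DR was 7.58 percentage points. These 5 sites were called with both antibodies.

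NFIA libraries of astrocytes held a mean share close to that of GR libraries of NR astrocytes when all peaks were counted. They held 13.4%, 12.6% and 12.2% (mean 12.7% ± 0.642, n = 3), a difference of 0 (exact permutation p = 1). With the 1000 best peaks each NFIA library was below each GR library, with a difference of -3.22 (exact permutation p = 0.1, the smallest possible, adjusted p = 0.367), with summits inside the site the difference was -2.24, and as a share of own peaks -0.49. At least 1 of them had a peak at 36 sites (15.1%, background 66.2%), and 31 of the 40 sites with an NR GR peak also had one. NFIA libraries of oligodendrocytes held 0.42%, 0.42% and 0% (2 sites, 0.84%, background 1.54%), of InN 3.78%, 2.1% and 2.52% (9 sites, 3.78%, background 5.66%), and of ExN 6.3%, 1.26% and 0% (15 sites, 6.3%, background 8.26%). Each astrocyte NFIA library was above each of these, by 12.5, 9.94 and 10.2 percentage points on average (exact permutation p = 0.1 each, adjusted p = 0.183), but with the 1000 best peaks the differences were 0.42, -0.28 and 0.28.

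Promoter sites had a peak in brain nuclei more often than distal sites. In NR astrocytes 19 of 30 promoter sites (63.3%) and 21 of 208 distal sites (10.1%) had one in at least 1 library. Among all merged regions 72.9% of those at promoters and 35.1% of the distal ones did, so a higher share at promoters was not particular to vehicle sites. The mean share over the libraries of NR astrocytes was 54.4% of the 30 promoter sites and 6.73% of the 208 distal sites, and in DR astrocytes 32.2% and 2.56%. In the GR-con libraries it was 53.3% and 4.33%, in InN 30% and 1.92%, in ExN 28.9% and 0.641%, and for astrocyte NFIA 56.7% and 6.41%. Promoter sites were above distal sites in 11 of 11 V1 groups, by 25.1 percentage points on average (exact two-sided sign-flip permutation test over groups, p = 0.000977, the smallest that 11 groups allow). All groups score the same sites and several share a cell type, so they are not fully independent, though the test takes them as if they were. Without the ribosomal RNA locus, which gave 4 of the 30, the difference was 24.3. In 3T3 cells a 50K DEX library had a peak at 21 of 30 promoter sites (70%) and 141 of 208 distal sites (67.8%). A 50K vehicle library had one at 25 (83.3%) and 136 (65.4%) of them.

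Vehicle sites were shared with brain nuclei more often than DEX-only sites, but among distal sites alone the difference missed the threshold. Over the V1 groups the mean difference was 2.96 percentage points, above 0 in 10 of 11 groups (exact two-sided sign-flip permutation p = 0.00293), oligodendrocyte NFIA being the exception. It was 6.57 points in NR astrocytes, 6.11 in DR astrocytes, 4.99 in GR-con, 4.44 in InN and 2.51 for astrocyte NFIA. With the sites taken from replicate 2 of the 250K vehicle libraries alone the mean difference was 1.1, and without the ribosomal RNA locus it was 2.38. Among promoter sites only (30 vehicle and 186 DEX-only) the mean difference was 15.9 points (exact permutation p = 0.00391, above 0 in 9 of 11 groups). Of these 30 vehicle sites, 4 lie at the ribosomal RNA locus, and this split was not repeated without them. Among distal sites only (208 and 2107) the mean difference was 0.59 points (exact permutation p = 0.119). These splits by position were added after the data had been seen, and the difference between them was not tested. As in the comparison of promoter and distal sites, the groups behind each p are not fully independent.

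The promoter of Stip1 was the most widely shared site. Stip1 encodes HOP, the co-chaperone that joins Hsp70 to Hsp90 in the maturation of GR. The site lies 89 bp from a start on chromosome 19 and had a peak in 6 of 6 other 3T3 libraries and 21 of 31 V1 libraries. Its folds were 12.7, 11.5, 10.1 and 8.53 in the 50K vehicle and DEX libraries, 2.75, 8.64 and 5.62 in NR, and 3.33, 3.15 and 6.63 in DR. It was called in 1 GR-KO library (2.28-fold) and was the 1 vehicle site called in oligodendrocyte GR libraries (3.43-fold and 3.88-fold).

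Other promoter sites of housekeeping genes followed. Mrpl45, a protein of the mitochondrial ribosome, had folds of 8.11 and 10.6 in the 250K vehicle lists, 16.6, 40.1 and 27.4 in NR astrocytes, 10.9, 9.01 and 17.6 in DR and 14.9, 17.3 and 7.77 for NFIA in astrocytes. Tufm, the mitochondrial elongation factor Tu, had 25.4, 19.3 and 17.2 in NR, 6.83, 6.13 and 11.1 in DR, and 14.2, 24.2 and 21.7 for NFIA. Both hold the word, and both had a peak in 3 of 3 NR, 3 of 3 DR and 3 of 3 astrocyte NFIA libraries. Folds are set against each library's own background, so those of different lists stand side by side and their differences were not tested.

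Ampd2, an AMP deaminase, had a promoter site with 5.68, 9.29 and 8.03 in NR and 11.8, 8.14 and 15.9 in DR, and no peak in GR-KO. Ptms, which encodes the chromatin-associated protein parathymosin, had 2 promoter sites, of which the one with the word had 8.93, 15.7 and 14.5 in NR, 7.72, 8.5 and 15.9 in DR, and 6.16 in 1 GR-KO library. Pja2, a ubiquitin ligase, had 18.5, 17.3 and 3.06 for astrocyte NFIA and 3.07, 4.09 and 5.67 for GR in NR. Ska2, a kinetochore protein, was called in 12 V1 libraries at low folds (1.92 to 3.4). The intergenic site 16214 bp from Tex44 had 10.7, 6.68 and 8.73 in NR.

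One of the sites of best rank lay near a known glucocorticoid target. Dusp1 encodes a phosphatase of MAP kinases that glucocorticoids induce in many cells. A vehicle site lay 3415 bp from its start, with folds of 17.4 and 17.2 in the 250K vehicle lists, 9.96 and 8.55 at 50K with vehicle, and 8.54 and 10.5 at 50K with DEX. In astrocytes it had 6.1, 21.5 and 10.2 in NR and 7.82, 8.23 and 16.5 in DR. Its folds were 7.25 and 9.79 with floxed alleles and ΔCre, and 5.03 in 1 of 2 libraries with Cre. It holds TTGGCA and neither AP-1 nor TGGAAA. A further site lay 30473 bp away.

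Vehicle sites lay near 14 genes of the 13 lists looked at. Of 21924 protein-coding genes, 381 (1.74%) had one within 50 kb of a start and 105 (0.479%) within 10 kb. Of 30 canonical glucocorticoid targets 2 did, Dusp1 and Ddit4 (42137 bp), an inhibitor of mTORC1 (6.67%). Of 17 genes for the receptor, related receptors and chaperones 2 did, Stip1 and Ptges3 (13004 bp), the p23 co-chaperone (11.8%). Of 15 heat shock genes 2 did (Hspa1a and Hspa1b, which share their sites), of 15 histone and chromatin genes 2 (Brd2 and H3f3a at 34220 bp), and of 20 ribosomal protein genes 2 (Rpl18 at 35480 bp and Rpl27 at 22671 bp).

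The other lists had 1 gene or none. Single genes were Dbp of 18 clock genes (25111 bp), S100a4 of 23 fibroblast matrix and cytoskeleton genes, Mrpl45 of 20 mitochondrial ribosome genes and Camk2a of 15 neuron markers (33873 bp). S100a4, a calcium-binding protein of motile fibroblasts, had sites 259 and 2721 bp from its start. The nearer one had 7.54-fold and 6.86-fold enrichment with vehicle and 7.5-fold and 8.37-fold with DEX at 250K, with no call at 50K. The lists of immediate early genes (19), RNA polymerase II and splicing (20), nuclear factor I (4) and astrocyte markers (15) had 0. No gene had 3 or more sites within 50 kb. Several of these shares exceed the 1.74% of all genes, but each rests on 1 or 2 genes, and no enrichment was tested.

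The word TGGAAA, which marks many vehicle sites, was also common in the DR lists away from these sites. It was within 50 bp of the summit of 65.2%, 85.7% and 56% of DR peaks, against 8.01%, 18.2% and 7.86% of NR peaks, and leaving out vehicle sites the DR values were 64.3%, 86.4% and 54.6%. Each DR library was above each NR library, by 57.6 percentage points on average. The word was chosen after these values had been seen, so no test is given. In the 3T3 lists its share was 41.8% and 33.8% at 50K with vehicle and 21.5% and 19.7% with DEX, and outside vehicle sites 28%, 22.5%, 16.3% and 16.4%.

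Among the 100 peaks of highest fold in each list, the word was held by 60% in NR replicate 2 and by 5% in each of the other NR libraries. The same share was 83% in DR replicate 3, 16% and 19% in GR-con libraries, 12% in each GR-KO library, and 7% to 9% for NFIA in astrocytes. Of the top peaks of NR replicate 2, 8 of 100 lay at vehicle sites against 1 of 100 in each other NR library. In 3T3 cells it was 49% to 57% in the vehicle lists and 34% to 39% in the DEX lists. AP-1 was held by 24.4% to 38.8% of peaks in the 3T3 lists, but by 1.45%, 0% and 3.07% in DR and 2.28% to 2.96% in NR. The word was thus common in the DR lists and in the top peaks of NR replicate 2, while over all peaks of NR replicates 1 and 3 it was below the 10.1% of all merged regions. Which factor, or which property of the assay, goes with the word was not tested.

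**Figure D5:**
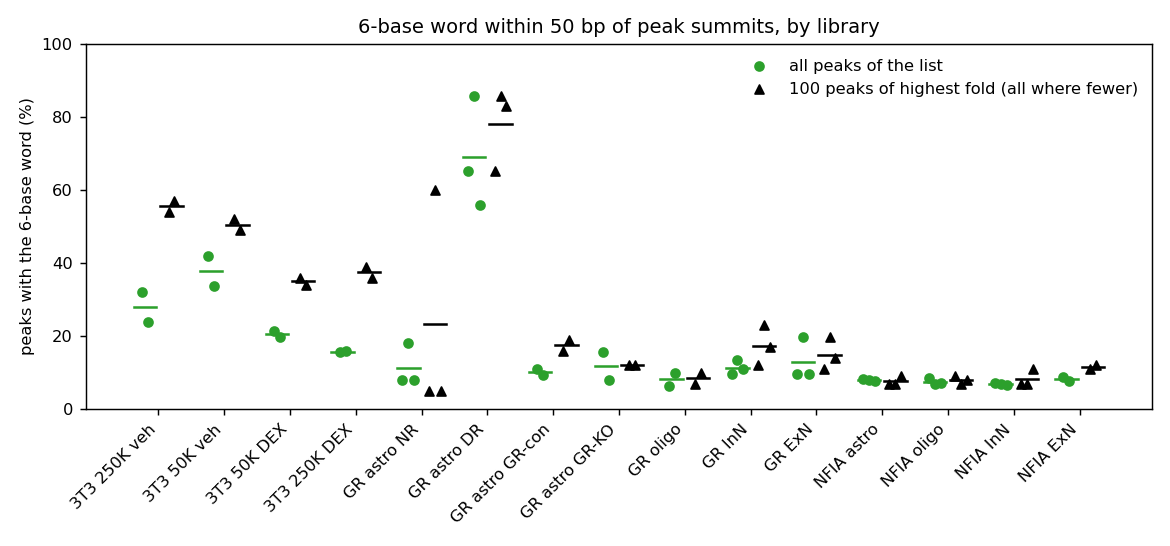
Percentage of peaks with the 6-base word TGGAAA within 50 bp of the summit (y axis) by group (x axis), for all peaks of a list (green circles) and for the 100 of highest fold (black triangles), 1 point per library and a line at the mean, leaving out lists with under 20 peaks. The DR libraries lie between 56% and 85.7%, and 1 of the 3 NR libraries reaches 60% among its top peaks.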

How the data were processed

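CUT&RUN for GR (27 libraries) and NFIA (12 libraries) gave 39 peak lists, while 11 of the 50 samples (IgG controls, GFP-negative nuclei) were not analysed here. The authors trimmed reads (cutadapt), aligned them to mm10 (Bowtie2), removed duplicates (Picard), kept reads of high mapping quality (SAMtools) and short fragments (deepTools), and called peaks in each library with MACS2 against IgG, per the paper's methods and the submitters' processing notes. The deposited lists give, per peak, a position, a score, a fold enrichment over background (ratio), a −log10 p-value, a −log10 q-value and the summit offset. Replicates are those of the labels. Each p over libraries covers no more than the spread between such libraries, which may be partly technical. The sign-flip p-values reflect how far the V1 groups agree in direction and size. They cover neither the spread between libraries nor the choice of sites. In vivo libraries with the same number are not known to come from the same mice.

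The members, gene lists, motifs and tests were chosen with earlier results of these data known. Vehicle sites were merged peaks (1 bp) called in both 250K vehicle lists. A site counted as occupied where a peak overlapped it by 1 bp. Groups were compared by the percentage of sites with a peak per library, with two-sided exact permutation tests over libraries, adjusted by Benjamini-Hochberg over 11 comparisons, and sites of 2 kinds by exact sign-flip tests over the 11 V1 groups, with a threshold of 0.05. Summit fragments were recovered from fold (count + 1 over background + 1) and the Poisson p, within 0.01 of −log10 p, for at least 99.9% of peaks. Background is the lowest local value in a list. Motifs (18 patterns, which may overlap each other) were searched on both strands within 50 bp of the site's summit. Genes and starts are from GENCODE M21, promoter sequences from RefSeq (GRCm38.p6). Wilson intervals (95%) cover counting error only.

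Sites are named after the nearest protein-coding start. Named were the 12 of best mean fold rank in the 250K vehicle lists, the 12 with a peak in most other libraries, those near genes of the lists (within 500 bp, and up to 3 more genes per list within 50 kb), the 5 best ranked with no other peak, and the 8 of best rank in the DEX lists. Klhl28, Prkdc, Col6a3, Sgk1, Cd300lb, Syne2 and Fgd3 were named after their values were seen. The code was tested on simulated data. Python 3.11.15, numpy 2.4.6, scipy 1.17.1, pysam 0.24.0, matplotlib 3.10.9 and samtools 1.23.1 were used.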

Additional observations from a re-analysis of the deposited data

How the results depend on the processing

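The 11 comparisons between library groups are too small for their exact permutation tests to pass the threshold, so only values and directions are compared. Counting each library's own peaks at vehicle sites turned 9 of them: 50K DEX minus vehicle -38.1, 250K minus 50K DEX -9.25, NR minus DR -15.5, GR astrocytes minus oligodendrocytes, InN and ExN -0.103, -0.326 and -0.884, and NFIA astrocytes minus the same -0.0902, -1.43 and -0.436 percentage points. With the 1000 best peaks of each list NR minus DR was -2.38 and NFIA astrocytes minus InN -0.28. That setting also left 3.78 of 31.1 for 250K minus 50K DEX, 1.05 of 8.82 for GR-con minus GR-KO and 0.42 of 12.5 for NFIA astrocytes minus oligodendrocytes. Both settings change how long lists count. Requiring the summit inside the site or q under 0.01 changed no direction except in astrocyte NFIA minus GR, which went from 0 to -2.24 and -0.152. There were 219 sites at q under 0.01 and 232 with a 50% overlap.

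Leaving out 1 library at a time gave -5.04 to 12.6 for 50K DEX minus vehicle, 22.3 to 39.9 for 250K minus 50K DEX, 4.55 to 8.33 for NR minus DR, 7.14 to 10.5 for GR-con minus GR-KO, and -1.75 to 1.19 for astrocyte NFIA minus GR. It gave 1.1 to 2.5 for vehicle minus DEX-only sites, 19.8 to 26.0 for promoter minus distal sites and 9.95% to 12.6% for the promoter share. With the 4 NFIA groups alone both sign-flip results missed the threshold, at 1.64 (exact permutation p = 0.25) and 20.5 (p = 0.125), where 0.125 is the smallest p possible, and with distal sites only the first was 0.59. The cause was not tested.

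Windows of 100 bp on either side of the summit gave AP-1 at 52.9%, TTGGCA at 15.5% and TGGAAA at 54.2% of vehicle sites, promoters of 2000 bp gave a promoter share of 23.1%, and a reach of 10 kb left 6 of 14 list genes. Whether replicate numbers pair the libraries was not tested. Over the sites, deviations of same-numbered libraries correlated from -0.246 to 0.226, and over 0.1 in 5 of 30 pairs. In groups of 2 libraries both pairs give the same value by construction, so the 30 are not all separate. For NR minus DR the values were 0.202, -0.15 and 0.226 in replicates 1, 2 and 3. With a replicate block NR minus DR stayed 6.44 (exact permutation p = 0.25), and the block moved no difference. Read depth is unknown, so a site without a peak may have been missed.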
